A study of Homo sapiens with 4 samples.

Results

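Circular RNAs (circRNAs) of host genes that build, organise or travel along microtubules were followed in exosomes of irradiated and control pancreatic cancer cells. A circRNA counted as a member when its host gene name began with CEP, KIF, DNAH, IFT, TUBGCP, BBS or CLASP and a digit, began with DYNC, or was CAMSAP1, CAMSAP2, MTCL1, PCM1, CENPE, CENPF, CDK5RAP2, MACF1, DST, MAP4, MAP7 or ASPM. It also had to be listed on the strand of that gene, as an exonic, intronic or sense overlapping circRNA. At least 1 junction read, a read across the back-splice join, was required in the 4 libraries together. The rule found 75 circRNAs of 43 host genes among 9405 circRNAs with a read. Another 40 circRNAs of these genes and categories had no read in the 4 libraries, and 27 rows were antisense to these genes and no members. At the lower edge of the rule, 2 members had 1 read each, 16 had 2 reads and 25 had 3 reads.

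Exosomes were collected by ultracentrifugation from the medium of pancreatic cancer cells that received 10 Gy of X-rays (libraries B1 and B2) or no irradiation (libraries A1 and A2), at passages 14 to 16. The labels of all 4 samples list the same established lines, PANC-1, BxPC-3, MIA PaCa-2 and SW1990, so the line or mixture behind each library was not resolved here. Nothing in the sources states that the 2 libraries of a group came from separate cultures, and p-values then measure only the spread between these libraries. The column B2, with 1861 circRNAs, was taken by its label. The study's own circRNA lists carry the second irradiated library under another column name, and the circRNA number in its sequencing summary for a library called B2 is not that of this column, so values of B2 may belong to another library than the sample so titled, and values of each library are given apart. Total RNA was depleted of ribosomal RNA and sequenced with a strand-preserving kit, and the question was which exosomal circRNAs changed after irradiation.

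Microtubules are polar tubes of tubulin whose minus ends are usually anchored at the centrosome and whose plus ends grow towards the cell border. Dyneins walk to the minus end and most kinesins to the plus end, and both carry cargo and help to assemble the mitotic spindle. The same centrosomal machinery forms the base of the cilium, where intraflagellar transport (IFT) trains and the BBSome move proteins along the axoneme. A circRNA arises when a downstream splice donor joins an upstream splice acceptor, so the read across the join identifies the circle.

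The joins of the 9 circles that were read in both irradiated libraries are given first, because the results turn on them. Each is read on the strand of its host gene, 5′ to 3′, as the last 20 bases of the circle followed by its first 20, and the capitals mark the last 2 and the first 2 bases at the join. The letters come from the GRCh37 reference (hg19) at the ends that the deposited table lists.
CAMSAP1 hsa_circ_0001900, chr9:138773479-138774924, minus strand: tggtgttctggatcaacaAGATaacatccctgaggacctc
MTCL1 hsa_circ_0000825, chr18:8718422-8720494, plus strand: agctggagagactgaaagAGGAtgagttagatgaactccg
DYNC1H1 hsa_circ_0002398, chr14:102506573-102507010, plus strand: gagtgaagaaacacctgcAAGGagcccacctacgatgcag
CEP192 hsa_circ_0107922, chr18:12999420-13030607, plus strand: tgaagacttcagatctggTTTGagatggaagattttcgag
CEP192 hsa_circ_0000831, chr18:12999420-13019205, plus strand: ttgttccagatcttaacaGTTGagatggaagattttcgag
IFT46 hsa_circ_0007372, chr11:118422501-118430579, minus strand: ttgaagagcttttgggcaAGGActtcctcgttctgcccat
DYNC2H1 hsa_circ_0024143, chr11:103173822-103194718, plus strand: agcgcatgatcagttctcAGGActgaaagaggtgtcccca
DNAH14 hsa_circ_0016600, chr1:225140372-225161855, plus strand: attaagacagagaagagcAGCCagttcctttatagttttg
CLASP2 hsa_circ_0005324, chr3:33648083-33686395, minus strand: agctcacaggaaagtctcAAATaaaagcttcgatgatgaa

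The 2 CEP192 circles share the right side of the join, since both begin at exon 2 of the host, and differ on the left, where hsa_circ_0107922 ends at exon 11 and hsa_circ_0000831 at exon 9. The DYNC1H1 circle is short enough to be shown whole, as predicted from annotation. It would join exons 63 and 64 of the 78 exons of the host transcript, 175 and 76 nt long, without the intron of 187 nt between them. All 251 nt would then be coding sequence. Only reads across the join were counted, so the exons inside this and the other circles, and their lengths, were predicted and not observed. The capitals are the 10 bases on each side of the join, at the start and at the end of the run.
DYNC1H1 hsa_circ_0002398: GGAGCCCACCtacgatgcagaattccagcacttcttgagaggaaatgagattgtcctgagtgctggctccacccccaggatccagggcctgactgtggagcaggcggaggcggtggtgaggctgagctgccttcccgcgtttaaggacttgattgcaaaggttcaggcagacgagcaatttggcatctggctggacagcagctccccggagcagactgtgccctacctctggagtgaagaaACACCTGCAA

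Member circRNAs were more numerous, and took a larger share of the junction reads, in the irradiated libraries. B1 held 52 member circRNAs and B2 held 21, against 5 in A1 and 7 in A2. Over all hosts and categories the libraries held 3492 (B1), 1861 (B2), 2052 (A1) and 2485 (A2) circRNAs. Members made up 1.489% (B1), 1.128% (B2), 0.2437% (A1) and 0.2817% (A2) of these. B2 thus held fewer circRNAs than either control library, but more members. Exonic, intronic and sense overlapping circRNAs of all hosts numbered 2869 (B1), 1197 (B2), 923 (A1) and 1028 (A2). Member reads were 266 of 15150 junction reads (B1), 71 of 5756 (B2), 17 of 6544 (A1) and 26 of 8094 (A2). These were shares of 1.76% in B1 (95% Wilson interval 1.56 to 1.98%) and 1.23% in B2 (0.979 to 1.55%), against 0.260% in A1 (0.162 to 0.416%) and 0.321% in A2 (0.219 to 0.470%). The intervals of the irradiated libraries did not overlap those of the control libraries. They cover counting error only, since PCR copies of a molecule cannot be recognised without molecular identifiers. The mean share was 1.495 ± 0.369% in irradiated and 0.291 ± 0.0435% in control libraries (SD, n = 2 each), a difference of 1.20 percentage points. No test was made of this share because the members were chosen with results of these libraries known, and 2 libraries against 2 could not give an exact two-sided permutation p below 0.333.

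**Figure D1:**
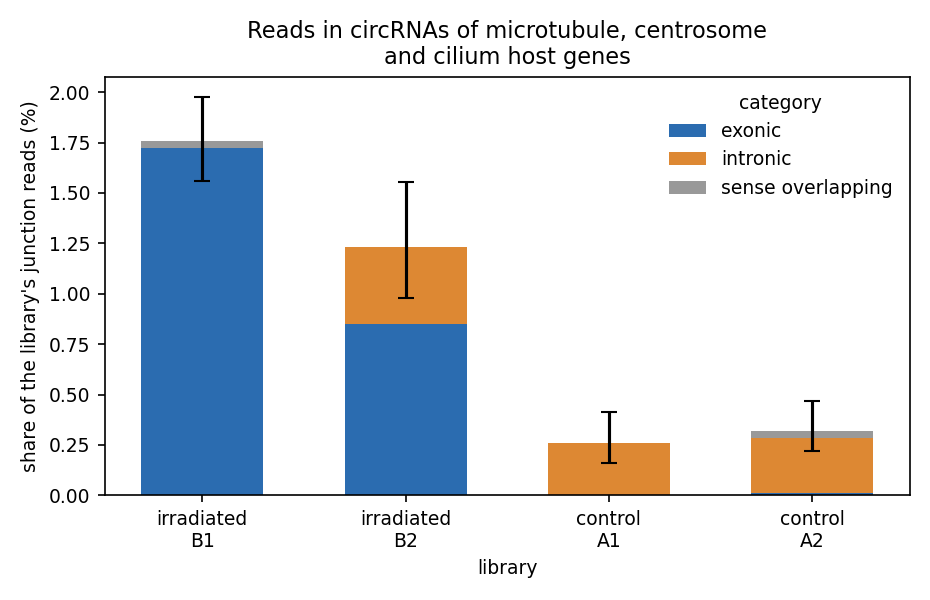
Bars give the share of each library's junction reads (%) in member circRNAs, stacked by category, for irradiated B1 and B2 and control A1 and A2, with 95% Wilson intervals of the total. The total was 1.76 and 1.23% in the irradiated libraries against 0.260 and 0.321% in the control libraries, and the exonic part was almost wholly in the irradiated ones.

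The category of the circle separated the groups more sharply than the share. An exonic circRNA joins annotated exon ends, whereas an intronic one lies inside an intron and a sense overlapping one crosses exon and intron borders on the gene's strand. The 56 exonic members had 261 reads in B1 and 49 in B2, compared with 0 in A1 and 1 in A2. The 16 intronic members had 0 reads in B1 and 22 in B2, compared with 17 in A1 and 22 in A2. The 3 sense overlapping members had 5 reads in B1 and 0 in B2, compared with 0 in A1 and 3 in A2. Thus all 56 exonic members were read in an irradiated library and 1 of them also in a control library, while 6 intronic members were read in B2 alone and 10 in a control library alone. A control read was found in 62.5% of intronic members and in 1288 of all 1969 intronic circRNAs (65.4%).

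This split was a property of the whole libraries as well. Exonic circles of all hosts made up 66.5% of B1 and 35.9% of B2, against 0.0458% of A1 and 0.0494% of A2, and 7 of all 2567 exonic circles (0.273%) had a control read, against 1 of 56 exonic members (1.79%). Intronic circRNAs of all hosts made up 8.61% of B1, where intronic members had no read, and 18.95% of B2, against 29.5% of A1 and 29.7% of A2. Mitochondrial junctions had the opposite pattern, with 0.264% in B1 and 1.25% in B2, compared with 22.2% in A1 and 15.1% in A2. The part of this composition in the values of single members was not tested. Within the exonic reads alone, members took 2.59% in B1 and 2.37% in B2. The control libraries held 3 and 4 exonic reads in all, too few for a share of members. Among the reads of exonic, intronic and sense overlapping circRNAs, members took 2.07% in B1 and 1.89% in B2, compared with 0.515% in A1 and 0.704% in A2. A host list of pancreatic duct and carcinoma markers gave reads at 3 of its 14 genes (EPCAM, MUC4 and TSPAN8), with sums of 2 to 4 reads in irradiated and 3 to 4 in control libraries, and keratins KRT7, KRT8, KRT18 and KRT19 were at 0. For any marker, a 0 here means that no circle was read, and it says nothing on the linear RNA of that gene. Blood cell and plasma markers gave reads at 4 of 20 genes, with sums of 7 to 41 in irradiated and 0 to 2 in control libraries. Of the 41 reads in B1, 26 came from HLA-DRB1, of antigen presentation, and 15 from C3, a complement protein that had 5 reads in B2, and neither had a control read. Both were called higher in the test per host described below, with fitted log2 fold changes of 6.12 (adjusted p = 0.287 for both, edgeR), and they were the 2 blood and plasma hosts tested. Of the C3 reads, 8 in B1 and 3 in B2 were of the exonic circle hsa_circ_0002130. The study reports this circle as raised after irradiation, by qRT-PCR, in exosomes from cancer cells. It reports the same for plasma exosomes of irradiated mice carrying patient-derived tumours. Which cells gave the C3 reads here was not tested. The globins HBA1, HBA2 and HBB were at 0, and PTPRC, the pan-leukocyte marker, had 2 reads in A2 alone. Stromal, neuronal and multiciliated markers summed to at most 4 reads in any library, with 1 of 11, 2 of 10 and 2 of 13 genes read. The part of other cell types in the members' values was not tested.

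Most members were seen once. Of the 75 circRNAs, 65 were read in 1 library, 42 of them in B1 alone, 12 in B2 alone, 5 in A1 alone and 6 in A2 alone. No member was read in both control libraries, while 9 (12%) were read in both irradiated libraries, against 310 of all 5586 circRNAs of the 3 categories (5.55%). Among exonic circles alone the shares were 16.1% of members and 10.9% of all 2567. The 6 members with 10 or more reads held 129 of the 380 member reads (33.9%), and the median member had 3 reads, as did the median circRNA of the 3 categories.

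**Figure D2:**
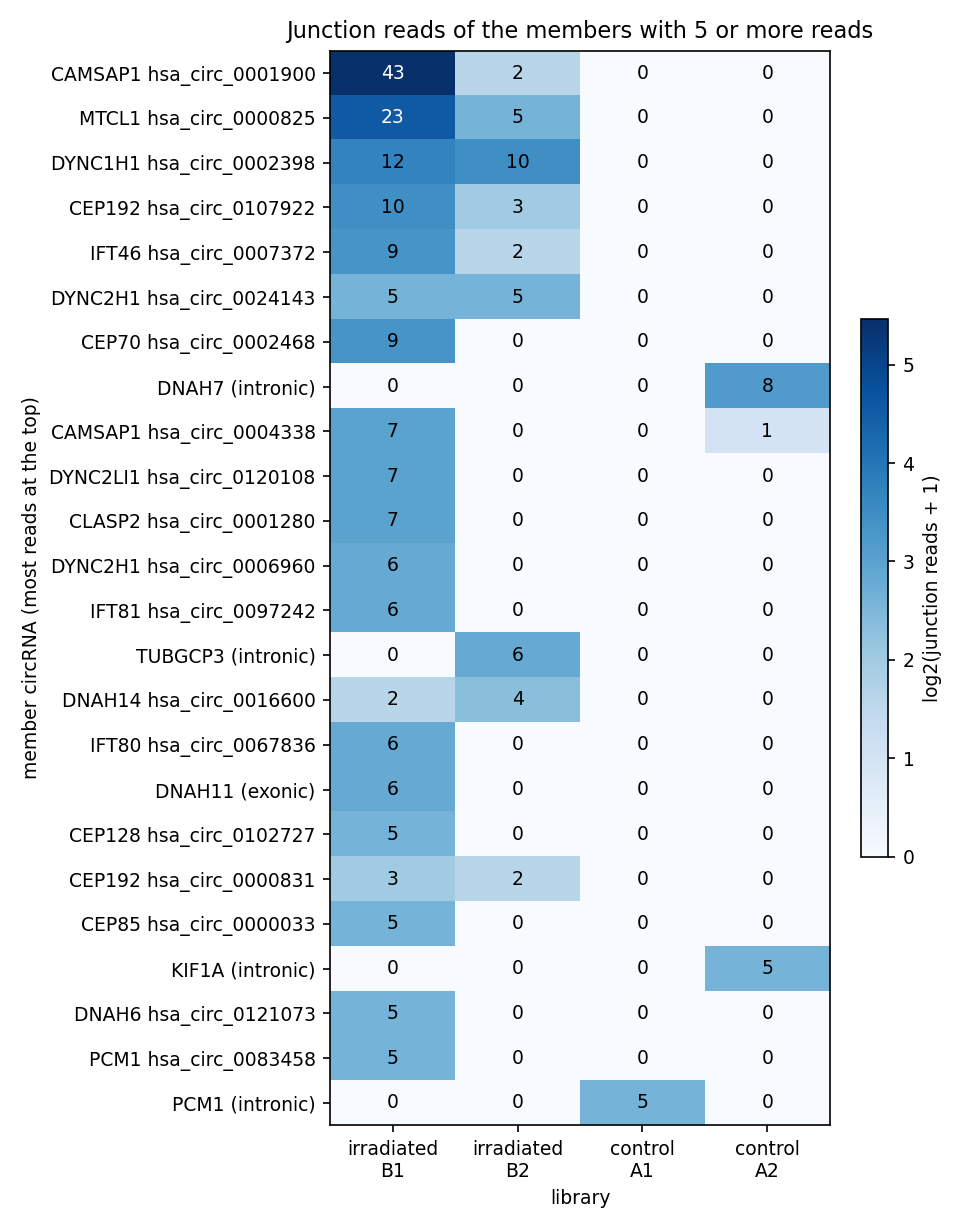
Each cell gives the junction reads of 1 member circRNA (down) in 1 library (across: irradiated B1 and B2, then control A1 and A2), for the 24 members with 5 or more reads, coloured on a log2(reads + 1) scale. Reads above 10 were found in B1 alone, and the 4 members with control reads were the intronic DNAH7, KIF1A and PCM1 circRNAs and CAMSAP1 hsa_circ_0004338.

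Host genes of the microtubule lattice and its ends carried the most reads for their number. The 7 circles of CAMSAP1, MTCL1 and CLASP2 had 85 reads in B1 and 11 in B2, compared with 0 in A1 and 1 in A2. CAMSAP1, which binds free minus ends, gave 4 circles. Its hsa_circ_0001900 (exons 2 and 3, 425 nt) had 43 reads in B1 and 2 in B2, compared with 0 in each control library, which is at least 10.5-fold higher per junction read. That bound sets the control group at 3 reads, the limit that a count of 0 allows over the group. Here and below, it takes the reads of the other group as counted, without their counting error, so a low bound fixes no direction. The 2 irradiated libraries both exceeded the control libraries, but B1 held nearly all of the reads. MTCL1, a microtubule cross-linking factor, gave hsa_circ_0000825 (exons 2 and 3, 384 nt) with 23 reads in B1 and 5 in B2, compared with 0 in each control library, at least 6.54-fold higher. CLASP2, which stabilises growing plus ends, gave hsa_circ_0005324 (exons 8 to 16, 982 nt) with 2 reads in B1 and 1 in B2, compared with none in the control libraries, and hsa_circ_0001280 with 7 reads in B1 alone.

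The CAMSAP1 circles were built from a common set of ends. The 3 circles hsa_circ_0001900, hsa_circ_0006814 and hsa_circ_0004338, began at exon 2 and ended at exons 3, 4 and 7, and hsa_circ_0089486 joined exons 6 and 7. The longest, hsa_circ_0004338 (885 nt), was the sole member read in both groups, with 7 reads in B1 and 0 in B2, compared with 0 in A1 and 1 in A2. Its ratio per junction read was 4.90 with an exact counting interval of 0.630 to 221, so no direction could be read from it. The ends of hsa_circ_0001900 were also listed on the opposite strand as an antisense circRNA with 15 reads in B1 and none in the other libraries. Whether reads of the 2 listings came from separate molecules was not tested.

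**Figure D3:**
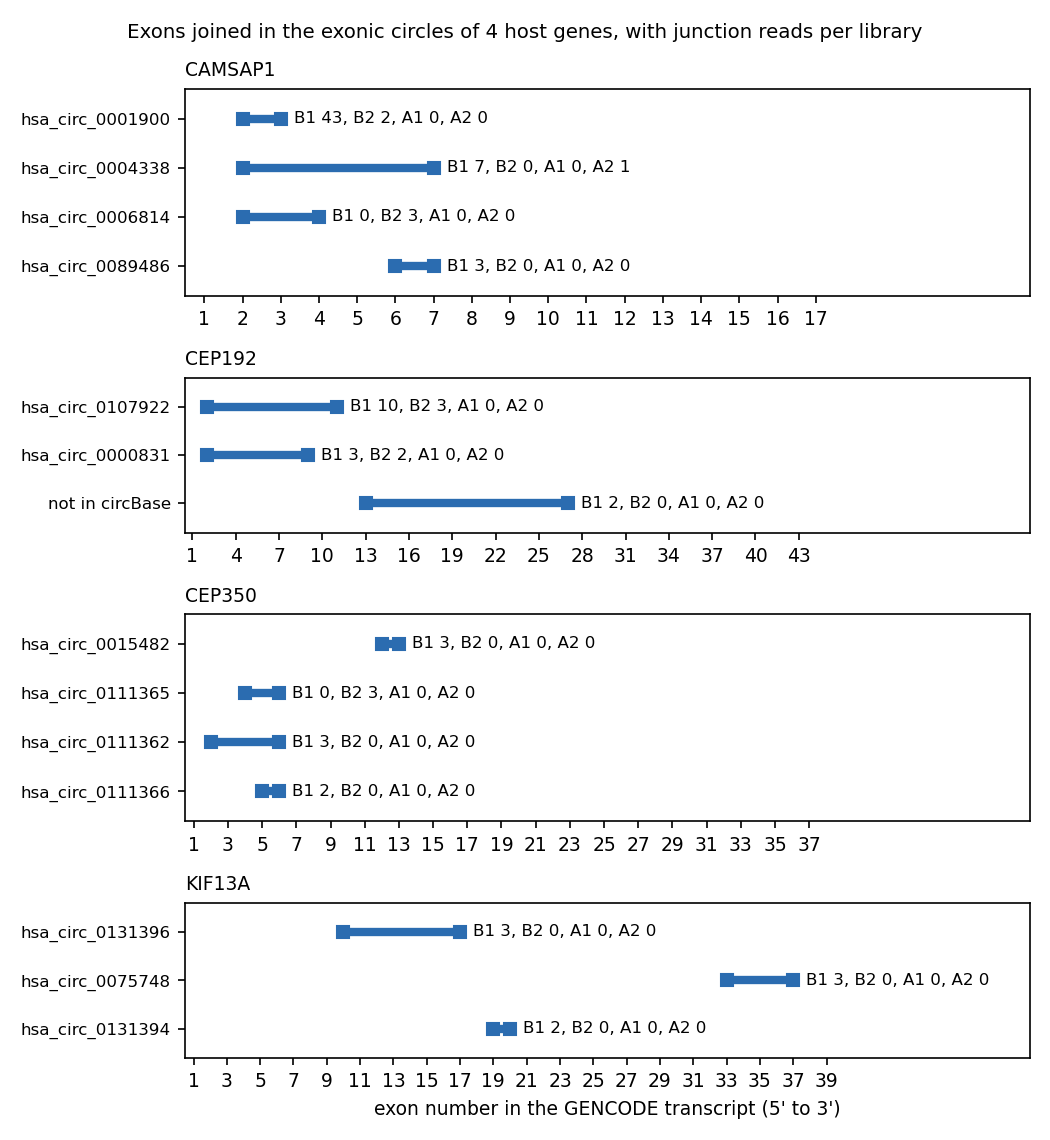
Horizontal bars show the exons (numbered 5′ to 3′ in a GENCODE transcript) that each exonic circle of CAMSAP1, CEP192, CEP350 and KIF13A spans, with its junction reads in irradiated B1 and B2 and control A1 and A2. The circles of CAMSAP1, CEP192 and CEP350 reuse ends at exons 2, 6 and 7, and those of KIF13A share none.

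Cytoplasmic dyneins, the motors that move to the minus end, had 9 circRNAs of 6 hosts with 39 reads in B1 and 19 in B2, compared with 2 in A1 and 0 in A2. DYNC1H1, the motor heavy chain of the main cytoplasmic dynein, gave the circle shown whole above, with 12 reads in B1 and 10 in B2, compared with 0 in each control library, at least 5.14-fold higher. Its counts were close in the 2 irradiated libraries, although B1 had more junction reads than B2. DYNC2H1, the heavy chain of the dynein that returns IFT trains to the ciliary base, gave hsa_circ_0024143 (exons 76 to 82, 944 nt) with 5 reads in B1 and 5 in B2, compared with 0 in each control library, at least 2.33-fold higher. The next exons upstream, 71 to 75, formed hsa_circ_0006960 with 6 reads in B1 alone. DYNC2LI1, a light intermediate chain of the same motor, gave hsa_circ_0120108 with 7 reads in B1 alone. The control reads of this group were 2 reads in A1 of an intronic circRNA listed under DYNC1I1, a dynein intermediate chain. Its splice signals lay on the opposite strand, as described below. The same held for another intronic circRNA listed under DYNC1I1, with 4 reads in B2 alone, which are part of the 19 reads of B2.

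Centrosome and spindle pole genes made the largest group, with 26 circRNAs of 13 hosts. They had 66 reads in B1 and 25 in B2, compared with 7 in A1 and 2 in A2. CEP192, a scaffold that gathers mitotic kinases and γ-tubulin at the centrosome, gave hsa_circ_0107922 (1538 nt) with 10 reads in B1 and 3 in B2, compared with 0 in each control library, at least 3.03-fold higher. The shorter hsa_circ_0000831 (1054 nt) had 3 reads in B1 and 2 in B2, compared with none in the control libraries. Its bound of 1.17-fold was too low to fix a direction. Both CEP192 circles thus exceeded the control libraries in each irradiated library. CEP70, a centrosomal protein that binds γ-tubulin, gave hsa_circ_0002468 with 9 reads in B1 alone. CEP128, found at the mother centriole, gave hsa_circ_0102727 with 5 reads in B1 alone, and CEP350, a centrosomal microtubule anchor, gave hsa_circ_0111362 with 3 reads in B1 alone. CEP112 gave hsa_circ_0002910 with 3 reads, again in B1 alone. PCM1, the scaffold of centriolar satellites, was read in both groups but in different forms, as an exonic circle with 5 reads in B1 alone and as an intronic circRNA with 5 reads in A1 alone.

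Ciliary transport genes had 9 circles of 6 hosts, all exonic, with 36 reads in B1 and 2 in B2, compared with 0 in both control libraries. IFT46, a subunit of the IFT-B train, gave hsa_circ_0007372 (860 nt) with 9 reads in B1 and 2 in B2, compared with 0 in each control library, at least 2.57-fold higher. It was the sole circle of the group that B2 held. The remaining 8 circles, of IFT80, IFT81, IFT88, IFT140, BBS9 and IFT46, had 1 to 6 reads each, all in B1.

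Axonemal dynein heavy chains, the motors that bend motile cilia, were read in 3 of the 4 libraries. Their 11 circRNAs of 5 hosts had 22 reads in B1 and 10 in B2, compared with 0 in A1 and 15 in A2, and the 6 exonic ones had no control read. DNAH14 gave hsa_circ_0016600 (863 nt), which begins at exon 2, with 2 reads in B1 and 4 in B2, compared with 0 in each control library. Its bound of 1.40-fold was too low to fix a direction. DNAH6 gave hsa_circ_0121073, which spans 14 exons, with 5 reads in B1 alone. Intronic DNAH6 circRNAs at chr2:84920395-84920949 and chr2:84966366-84966751 had 3 reads each in B2 alone, which are part of the 10 reads of B2. The splice signals of the latter lay on the opposite strand, as described below. The intronic DNAH7 circRNA was the member with the most control reads, with 0 reads in B1 and B2, against 0 in A1 and 8 in A2, at least 3.81-fold lower in irradiated libraries. The intronic DNAH11 circRNA had 4 reads in A2 alone, 1.904-fold lower in irradiated libraries by the same bound, with too few reads to fix a direction. In both, A1 was at 0 like the irradiated libraries, so the groups overlapped. The splice signals of the DNAH11 circRNA lay on the opposite strand, as described below.

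Kinesins had 9 circRNAs of 7 hosts with 16 reads in B1 and 1 in B2, compared with 4 in A1 and 5 in A2. Their reads in the control libraries were all intronic. They were listed under KIF6, a kinesin linked to cilia, with 4 reads in A1 alone, and KIF1A, a neuronal vesicle motor, with 5 reads in A2 alone. The splice signals of the KIF1A circRNA lay on the opposite strand, as described below. KIF13A, which carries endosomes, gave 3 circles with 2 to 3 reads each in B1 and none in the other libraries, among them hsa_circ_0075748 with 3. The spectraplakins MACF1 and DST, which tie actin to microtubules, had 2 reads in B1 and 3 in B2, compared with 4 in A1 and 0 in A2, and the 4 control reads were an intronic MACF1 circRNA. The sole kinetochore member, a sense overlapping circRNA of CENPF, had 3 reads in A2 alone.

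The test for single circRNAs kept those with at least 5 reads over the 4 libraries and called a circRNA where it differed by more than 2-fold with an unadjusted p below 0.05, the thresholds of the study's methods. Of 1957 circRNAs tested, 69 were called higher (3.53%) and 4 lower (0.204%) in irradiated libraries. Of the 24 members tested, 3 were called higher and 0 lower, and 51 members were too sparse to be tested. The called circles were those of CAMSAP1, MTCL1 and DYNC1H1. CAMSAP1 hsa_circ_0001900 had a fitted log2 fold change of 7.91 (unadjusted p = 0.0013, adjusted p = 0.305, edgeR quasi-likelihood test with Benjamini-Hochberg adjustment over all circRNAs). MTCL1 hsa_circ_0000825 had 7.43 (unadjusted p = 0.00732, adjusted p = 0.549, edgeR) and DYNC1H1 hsa_circ_0002398 also 7.43 (unadjusted p = 0.00744, adjusted p = 0.549, edgeR). By edgeR, 0 members and 2 of all circRNAs (0.102%) had an adjusted p under 0.05, and DESeq2 gave 0 members, with 1 called unadjusted. Other settings did give such members. With a total of at least 10 reads, 5 of 6 members tested passed, as did 106 of all 307 circRNAs tested. Without B1, 2 of 7 members and 121 of all 819 passed, and without B2, 4 of 21 members and 207 of all 1684.

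These fitted values are relative to a large common shift. The median log2 fold change of all 1957 circRNAs was 5.0 with TMM scaling and 3.69 without it, and that of the 24 members was 5.11 with TMM. The 3 called circles lay 2.91, 2.43 and 2.43 above the median of all. Groups at 0 make such values depend on the fit, since 83.3% of the members tested and 70.1% of all circRNAs tested had no control read. With every such group set at 3 reads, the median log2 fold per junction read was 0.49 for the members and 0.22 for all. Both irradiated libraries exceeded both control libraries in 8 of 24 members (33.3%), against 233 of 1957 circRNAs of all categories (11.9%). All 8 were exonic, and among exonic circles tested the counts were 8 of 20 members (40.0%) and 209 of all 901 (23.2%). Calls depended on single libraries. Members called higher numbered 2 when B1 was left out, 6 when B2 was, 1 when A1 was and 0 when A2 was. Over all circRNAs the higher calls were then 113 of 819, 367 of 1684, 13 of 1722 and 5 of 1621. No member was called without TMM scaling, where 7 of all 1957 circRNAs were called higher.

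Reads were also summed over the exonic, intronic and sense overlapping circRNAs of each host. Of 1504 hosts tested, 142 were called higher (9.44%) and 17 lower (1.13%). Of the 27 member hosts tested, 5 were called higher and 0 lower. CAMSAP1 had 53 reads in B1 and 5 in B2, compared with 0 in A1 and 1 in A2, with a fitted log2 fold change of 4.95 (unadjusted p = 0.00207, adjusted p = 0.0979, edgeR). DYNC1H1 and MTCL1, with 1 circle each, had 6.51 and 6.501 (adjusted p = 0.143 for both, edgeR). CEP192 had 15 reads in B1 and 5 in B2, compared with 0 in each control library, with 6.12 (unadjusted p = 0.0188, adjusted p = 0.287, edgeR). DYNC2H1 had 11 reads in B1 and 5 in B2, compared with 0 in each control library, with 5.88 (unadjusted p = 0.0382, adjusted p = 0.402, edgeR). The median of all hosts was 4.30 and that of the 27 member hosts was also 4.30. By edgeR, 0 member hosts and 23 of all hosts (1.53%) had an adjusted p under 0.05, and DESeq2 called no member host either unadjusted or adjusted. Both irradiated libraries exceeded both control libraries in 10 of 27 member hosts (37%), against 391 of 1504 hosts (26.0%). Member hosts called higher numbered 0 when B1 was left out, 1 when B2 was, 2 when A1 was and 3 when A2 was. Over all hosts the higher calls were then 6 of 507, 41 of 1263, 50 of 1372 and 52 of 1331. No member host was called with RLE factors, where 8 of all 1504 hosts were called higher, or with mapped reads as library sizes, where 15 were.

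Genes of the same pathways that the name rule does not cover were given from fixed lists. Microtubule and spindle genes were read at 18 of 70 hosts, with 87 reads in B1 and 36 in B2, compared with 2 in A1 and 2 in A2. Of their 11 hosts tested 1 was called higher and 0 lower. It was SPECC1, whose hsa_circ_0000745 had 2 reads in B1 and 11 in B2, compared with 0 in each control library. Cilium genes were read at 17 of 74 hosts, with 69 reads in B1 and 17 in B2, compared with 5 in A1 and 10 in A2, and 1 of 8 hosts tested, WDPCP, was called higher and 0 lower. Centrosome and centriole genes were read at 12 of 39 hosts, with 40 reads in B1 and 10 in B2, compared with 2 in A1 and 4 in A2, led by SCLT1 hsa_circ_0001439 with 12 reads in B1 and 3 in B2, compared with 0 in each control library. None of their 4 hosts tested was called. Dynein cofactors and other motor subunits were read at 8 of 29 hosts and kinetochore genes at 3 of 33, and the 1 host tested in each list was not called.

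The exonic members were long for exonic circles of these libraries. Their median predicted length was 653.5 nt, against 452 nt over all exonic circles, and 30.4% of them reached 1000 nt, against 14.5% of all. By annotation they spanned a median of 4.5 exons, against 3, and none was a single exon, against 5.97% of all. Other features lay close to those of all exonic circles. A start at exon 2 was found in 28.6% of exonic members and 28.2% of all, and the flanking introns had medians of 7553 nt upstream and 7743 nt downstream in members, against 7755 and 6730 nt in all. Circles of coding sequence alone made up 75.0% of exonic members and 81.3% of all. Of the 9 circles in both irradiated libraries, 5 began at exon 2. Of the 13 hosts with at least 2 exonic members, 6 (46.2%) had circles that shared an end, against 52.9% of 490 such hosts in all. These comparisons describe the genes and the circles read, and were not tested.

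The ends of the members differed by category in their sequence. All 56 exonic members had AG just before the first base and GT just after the last base on the listed strand, and both ends lay at annotated exon ends. Ends at annotated exons are what the exonic category requires, so this outcome was not free to vary. Of the 16 intronic members, 10 had AG and GT on the listed strand and 6 had them on the opposite strand, where the listed strand reads AC before and CT after. The shares over all intronic circRNAs of nuclear chromosomes were 55.75% and 44.2%, and all 2567 exonic circles had the motif on the listed strand. Only 1 of those 1869 intronic circRNAs had it on neither strand, so having the motif does not set the intronic members apart. The 6 intronic members with the motif on the opposite strand were listed under KIF1A, DNAH11, DYNC1I1, CEP112 and DNAH6. They were kept in the sums of these hosts and of their roles, and their origin from these genes was not tested. Intronic ends of both groups are shown here, each as 30 bases of the listed strand with 15 bases outside and 15 inside the circRNA, start first and end second, the capitals marking the dinucleotide next to the circRNA.
DNAH7 intronic start, chr2:196901572-196901759, minus strand: taggctagtccttAGgtccctaggtggtac
DNAH7 intronic end: aatgccagtccttagGTctctaggcagagc
TUBGCP3 intronic start, chr13:113205117-113205437, minus strand: tgattatttcagcAGgttttgtttttgttt
TUBGCP3 intronic end: cgcatatttcagcagGTttttcaaagcttt
KIF1A intronic start, chr2:241686756-241688028, minus strand: gggaacacctatcACctctgtctcccctcc
KIF1A intronic end: ggctccaaccatttgCTctgtttctcctgc

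The DNAH7 circRNA was read in A2 alone, the TUBGCP3 circRNA (a γ-tubulin complex gene) in B2 alone with 6 reads, and the KIF1A circRNA in A2 alone. In each, the bases around the start recur around the end, so the join could be placed at more than 1 position of the same letters. The run of identical bases was 12 for DNAH7, 16 for TUBGCP3 and 6 for KIF1A. Over the 16 intronic members the median run was 5.5 bases, and 56.3% had a run of at least 5, against a median of 5 and 53.2% over the 1869 intronic circRNAs of nuclear chromosomes. Over the 56 exonic members the median was 2 bases and 5.36% had such a run, against 2 bases and 6.27% of all exonic circles. Members and all circRNAs of the same category lay close in this feature, and the closeness was not tested.

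**Figure D4:**
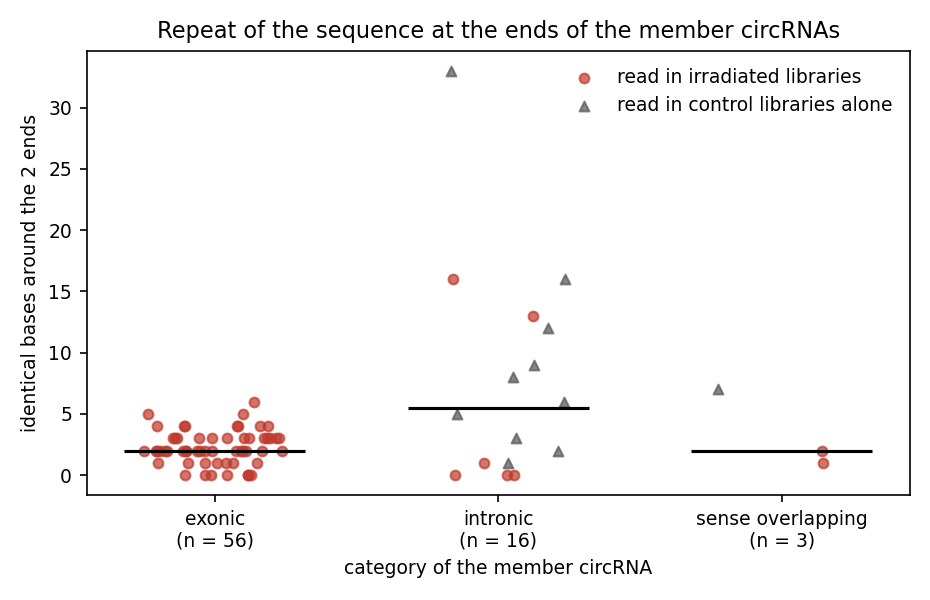
Points give the run of identical bases around the 2 ends (bases) of each member circRNA by category, with circles for members read in an irradiated library, triangles for members read in control libraries alone, and a line at the category median. Exonic members lay between 0 and 6 bases with a median of 2, and intronic members between 0 and 33 with a median of 5.5.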

How the data were processed

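RNA of exosomes from irradiated (n = 2) and control (n = 2) pancreatic cancer cells was analysed from a table of junction read counts per circRNA. Per the study's methods and processing notes, Cutadapt 1.9.3 served for trimming, STAR 2.5.1b for alignment against hg19 and DCC for circRNA detection, and the authors deposited raw junction read counts. The deposited table also gives the predicted length of each circRNA, a further value of the authors. Its logCPM values (6 columns) and 2 count columns that match no sample label were not used, 8 columns of per-sample values in all. Each column was assigned by its label, B2 included, and mapped reads by the library names in the study's sequencing summary, so those of B2 may belong to another library.

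Junction reads numbered 5756 to 15150 in irradiated and 6544 to 8094 in control libraries. Counts were tested in edgeR 4.0.16 (glmQLFit in its older form, glmQLFTest, TMM over the features kept, at least 5 reads in all), with DESeq2 1.42.0 as an alternative. The test script was run on simulated data of far greater depth and less spread than these libraries, so that run does not bear on the calls here. Exons were taken from GENCODE on GRCh37. By rule, named circRNAs were members read in both irradiated libraries, the 12 with the most reads, the 6 with the most control reads and those called. The most-read circRNA of each role and of each host with at least 3 members was also named. Other members were given outside this rule, among them further circRNAs of the same hosts and the intronic TUBGCP3 circRNA. The members, gene lists, the form of the test and the library sizes were chosen with earlier results of these data known. Same-numbered libraries are not paired by the labels. Alternatives covered scaling, filters, tools, the replicate block and leaving out each library.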

Additional observations from a re-analysis of the deposited data

How the results depend on the processing

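Few reads limit every value here: 43 of 75 members had at most 3 reads, and a member at 0 in a group may hold up to 3 reads there. Each setting below changed 1 choice, and where a library was left out, the lone library of its group was assumed to vary like the others. Counts over the whole table stand in parentheses. Members called higher by circRNA numbered 3 (69 of all), against 0 without TMM scaling (7), 1 with RLE factors (14), 5 with a total of at least 10 reads (132 of 307 tested), 6 with the newer form of glmQLFit (146), 5 with the likelihood ratio test (159), 1 with DESeq2 (12), and 0 to 6 with 1 library left out (5 to 367). Members with an adjusted p under 0.05 numbered 0 (2 of all), against 5 with at least 10 reads (106 of 307), 3 with the replicate block (16 of 1957), and 0 to 4 with 1 library left out (0 to 207). Member hosts called higher numbered 5 (142 of all), against 3 without TMM scaling (58), 0 with RLE factors (8), 0 with mapped reads as library sizes (15), 8 with the newer form (199), 0 with DESeq2 (27), 0 with the replicate block (0), and 0 to 3 with 1 library left out (6 to 52). Member hosts with an adjusted p under 0.05 numbered 0 (23 of all), against 4 with at least 10 reads (122 of 504), and 0 with any 1 library left out (0 to 10). The causes of these shifts were not tested, except that the filter at 10 reads left 6 members and 14 member hosts to test. With edgeR's filterByExpr no member was left to test.

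The share of junction reads was 5.14 times as high in irradiated as in control libraries, against 3.24 times among exonic, intronic and sense overlapping reads, 7.41 times per mapped read, where the total taken for B2 may be that of another library, and 4.25 to 6.04 times with 1 library left out. The number of member circRNAs, not scaled to all circRNAs of a library, was 6.08 times as high. With 1 library left out it was 3.50 to 8.67 times. For circBase circRNAs alone it was 62.0 times, which rests on 1 control circRNA, in A2. CircBase circRNAs of all hosts made up 65.6% of B1 and 33.55% of B2, compared with 0.0458% of A1 and 0.0494% of A2. For 18 named members tested, 223 refits gave 14 losses and 10 gains of an unadjusted p under 0.05.

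The replicate numbers are not a pairing in the labels, and the deviations of same-numbered libraries correlated at 0.022 for circRNAs and 0.0197 for hosts. With the replicate block, 73 of all circRNAs were called higher, against 69 without it, and 0 of all hosts, against 142.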
